A study of Mus musculus with 6 samples.

Results

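Slit ligands, Robo receptors and the srGAP proteins that act downstream of them were described in RNA of sorted mouse interneurons through 10 genes chosen by their symbols: Slit1, Slit2 and Slit3, Robo1, Robo2, Robo3 and Robo4, and Srgap1, Srgap2 and Srgap3. Each symbol was found on exactly 1 of the 29606 loci of the deposited table, and no such row carried a further symbol. Of the 10 genes, 8 had a mean of at least 1 FPKM (fragments per kilobase of transcript, scaled to the mapped fragments of the library) over the 6 libraries and were among the 13200 loci tested. Slit3 and Robo4 lay below that level and are given by their values.

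Slits are large secreted proteins that bind Robo receptors on growth cones and on migrating cells, and in most settings they repel them. The ventral forebrain makes Slits, and interneurons born in the ganglionic eminences (GEs) carry Robo receptors while they leave it and travel around the striatum towards the cortex. Inside the cell, srGAPs bind the tail of the receptor through an SH3 domain, and their F-BAR domain bends the plasma membrane.

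Total RNA depleted of ribosomal RNA was sequenced from GFP-positive cells sorted by FACS from the GEs of embryos at E13.5, in 3 WT and 3 CCP1 cKO libraries. The cKO embryos were CCP1 lox/lox with the Dlx5,6 CRE GFP transgene, and the WT embryos were CCP1 Wt/Wt with the same transgene. Both groups therefore carried Cre, deletion was limited to the Dlx5/6 lineage, and the strain label of both was MF1. CCP1, encoded by Agtpbp1, removes glutamates from tubulin and, as the study reports, from the end of myosin light chain kinase. The comparison asks what the loss of CCP1 in newborn interneurons changes in their RNA. The study gives the replicates as embryos from independent females, and the p-values below measure only the spread between these libraries.

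The WT libraries held 20.01, 18.9 and 18.1 FPKM of Agtpbp1 (replicates 1, 2 and 3) and the cKO libraries 9.68, 10.1 and 9.56 FPKM, a log2 fold change of -0.89 (SE 0.06, adjusted p = 0.00449, limma). In the study the deletion takes out only the exons of the catalytic domain. FPKM of the whole gene therefore does not measure how completely they were removed. The GABAergic lineage was well represented, since all 8 markers of its list were tested and Dlx2 averaged 172.7 FPKM. Other lists were led by Vim (radial glia, 173.3 FPKM), Bcl11b (striatal projection neurons, 82.7 FPKM), Zic1 (septum and ventral midline, 47.6 FPKM), Hbb-y (red blood cells, 11.6 FPKM), Neurod6 (cortical excitatory lineage, 6.94 FPKM) and Aif1 (microglia, 0.178 FPKM), while the 5 pericyte markers summed to between 0.556 and 1.67 FPKM. The values are those of a mixed sorted population, in which fewer cells of a type and less RNA per cell cannot be told apart. Relative depth, read from the smallest steps of the values, ran from 0.726 to 1.14, the FPKM sums from 447510 to 542953 and the share of the 10 highest loci from 13.2% to 28.3%.

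The sorted cells held more receptor RNA than ligand RNA, and 1 gene led each family. Robo1 was the most abundant of the 10 genes, at 53.9 ± 3.08 FPKM (SD, n = 6 libraries), which was above 90.5% of all tested loci. Robo2 followed at 35.0 ± 4.04 FPKM and Slit1 at 31.3 ± 3.25 FPKM. The srGAPs stood in the middle, with Srgap3 at 21.0 ± 5.33, Srgap2 at 13.3 ± 2.30 and Srgap1 at 11.0 ± 2.15 FPKM. Robo3 had 9.81 ± 2.93 FPKM and Slit2 3.57 ± 0.727 FPKM. Slit3, at 0.377 ± 0.0915 FPKM, and Robo4, at 0.0560 ± 0.0220 FPKM, came last. FPKM is per transcript length, so these levels may be set beside each other.

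Of the 9 steps in this order, 7 had the same direction in all 6 libraries. Robo2 exceeded Slit1 in 5 of 6 libraries, by 3.60 ± 2.96 FPKM (mean difference ± SD), and Srgap1 exceeded Robo3 in 4 of 6, by 1.21 ± 4.08 FPKM. The direction of these 2 steps thus differed between libraries, and for Srgap1 and Robo3 the mean difference was smaller than its SD. The ranges over the libraries did not meet between Robo1 and Robo2, Robo3 and Slit2, Slit2 and Slit3, or Slit3 and Robo4. In the plot of levels by library these appear as gaps between neighbouring columns.

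**Figure D1:**
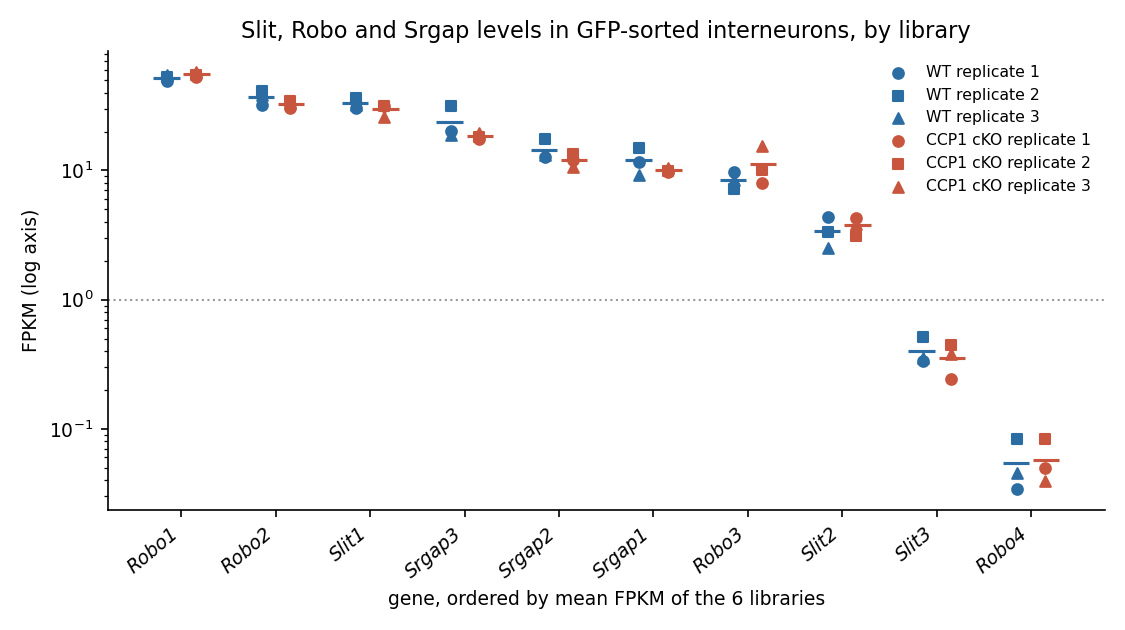
FPKM on a log axis of the 10 genes in the 3 WT (blue) and 3 CCP1 cKO (red) libraries, ordered by the mean of all 6, where points are libraries, short lines are group means and the dotted line is 1 FPKM. Robo1 leads with 49.0 to 58.3 FPKM, WT replicate 2 (blue square) is the highest library at all 3 Srgap genes, and Slit3 and Robo4 lie below 1 FPKM in every library.

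Between genotypes, no Slit, Robo or Srgap gene passed the test. None of the 8 tested members had an adjusted p below 0.05 (limma on log2(FPKM + 1), Benjamini-Hochberg over 13200 loci, adjusted p = 0.976 for each), where 0.0909% of all tested loci passed, 8 of them higher (0.0606%) and 4 lower (0.0303%) in the cKO. None had an unadjusted p below 0.05 either (0.115 to 0.484), against 4.62% of all tested loci. The values of WT and cKO libraries overlapped at all 10 genes, while they did not overlap at 9.8% of all tested loci. Of the 8 tested members, 5 had the lower mean in the cKO, compared with 56.6% of all tested loci.

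The 95% intervals of the fold changes were narrowest for Robo1, from -0.08 to 0.25 on the log2 scale, and widest for Robo3, from -0.19 to 0.84. The median log2 fold change of the 8 members was -0.16, beside -0.02 for all tested loci, and it was -0.06 when WT replicate 2 was left out. The plot of fold changes shows both fits.

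**Figure D2:**
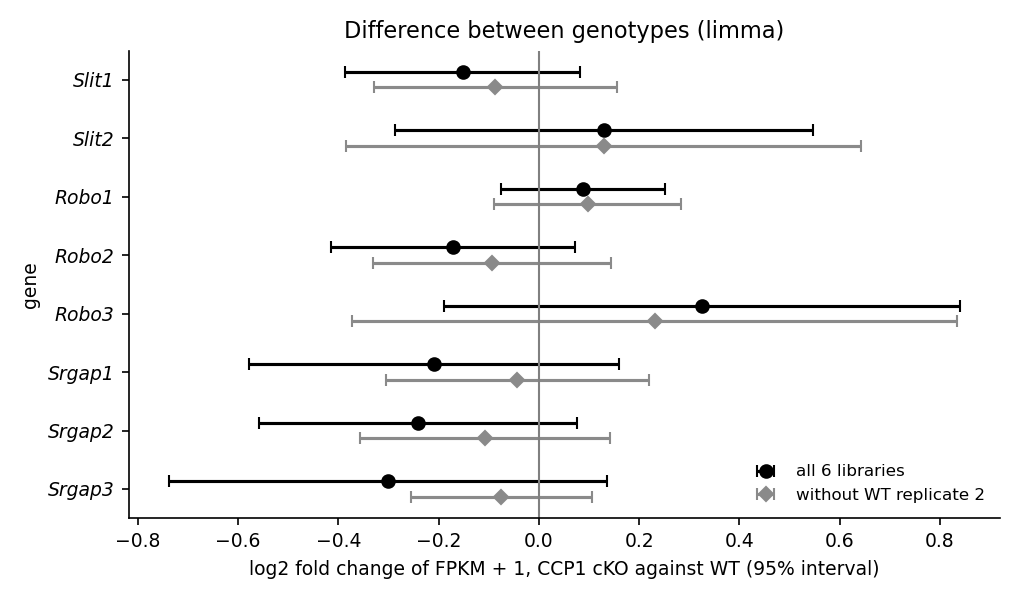
Log2 fold change of FPKM + 1, CCP1 cKO against WT, for the 8 tested genes, with 95% intervals from limma, in all 6 libraries (black circles) and without WT replicate 2 (grey diamonds). Every interval spans 0, and without WT replicate 2 the 3 Srgap values lie between -0.11 and -0.04.

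Slit1 supplied most of the ligand RNA. It repels GABAergic neurons of the ventral forebrain in culture. Its FPKM was 30.5, 36.2 and 32.4 in WT replicates 1 to 3 and 31.4, 31.5 and 26.1 in cKO replicates 1 to 3. The highest library was WT replicate 2 and the lowest cKO replicate 3, with the other 4 between 30.5 and 32.4 FPKM. The log2 fold change was -0.15 (SE 0.10, 95% interval -0.39 to 0.08). Slit1 made up 86.0% to 91.9% of the summed Slit FPKM, which itself ran from 30.3 to 39.98 FPKM per library.

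Slit2, known for guiding axons at the midline and across the ventral forebrain, had 4.35, 3.32 and 2.49 FPKM in the WT libraries and 4.28, 3.11 and 3.87 FPKM in the cKO libraries. High and low libraries occurred in both genotypes. Its log2 fold change was 0.13 (SE 0.18, 95% interval -0.29 to 0.55), and it became -0.023 without WT replicate 3, the lowest library. Slit2 was 7.07% to 12.8% of the Slit sum.

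Zic1, a zinc-finger factor of the septum, led the marker list of septum and ventral midline. The 3 libraries with the most Slit2, WT replicate 1 and cKO replicates 1 and 3, were also the 3 with the most Zic1. Zic1 had 65.0, 63.6 and 50.1 FPKM there and 29.9, 38.0 and 38.8 FPKM in WT replicates 2 and 3 and cKO replicate 2. Within the lower 3 libraries the order was not kept, since WT replicate 2 had the least Zic1 and more Slit2 than the other 2. Of the other 3 genes of that marker list, Zic2 was highest in the same 3 libraries (15.3, 11.7 and 6.26 FPKM), Shh was highest in the 3 cKO libraries and did not follow Slit2, and Foxa2 was listed at 0 in all 6. The 4 markers summed to 37.8 to 84.6 FPKM in WT and 47.4 to 81.4 FPKM in cKO. Zic1 was singled out after its values had been seen. This is a description over 6 libraries, and the part of dissected regions in the Slit2 values was not tested.

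**Figure D3:**
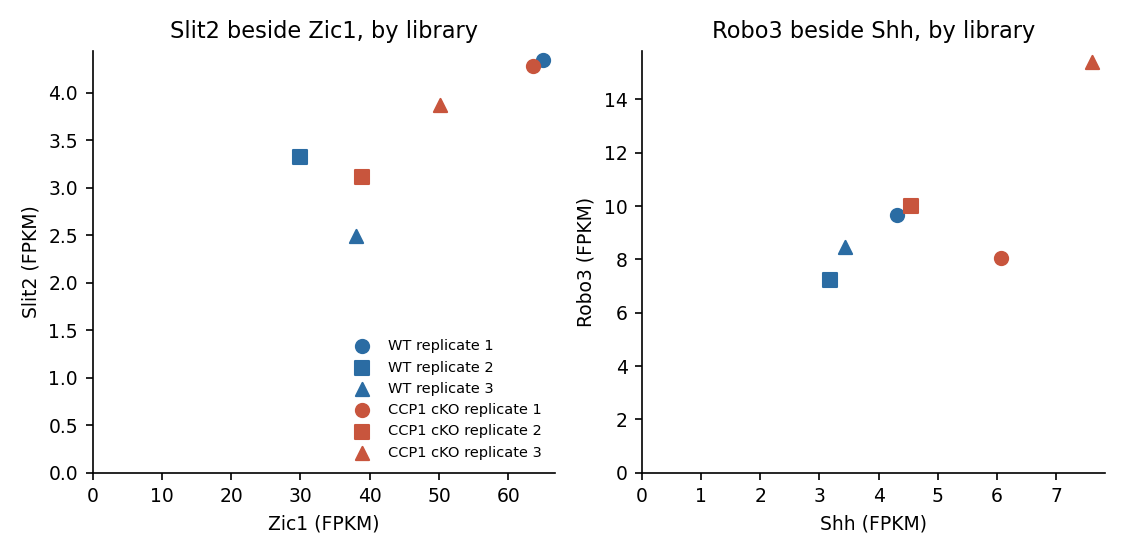
FPKM of Slit2 against Zic1 (left) and of Robo3 against Shh (right), each point a library, WT blue and CCP1 cKO red, with circles, squares and triangles for replicates 1, 2 and 3. The 3 libraries with at least 3.87 FPKM of Slit2 are those with at least 50.1 FPKM of Zic1, and cKO replicate 3 stands alone at 15.4 FPKM of Robo3 and 7.60 FPKM of Shh.

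Slit3 was listed at 0.337, 0.510 and 0.354 FPKM in the WT libraries and at 0.244, 0.442 and 0.376 FPKM in the cKO libraries. The groups overlapped, with a difference of -0.0462 FPKM between the means (two-sided exact permutation p = 0.6, where 3 against 3 libraries allow no p below 0.1). The sign of that difference changed when WT replicate 2 or cKO replicate 1 was left out.

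Slit2 and Slit3 each hold a copy of the microRNA miR-218 in an intron, Mir218-1 at chr5:48223942-48224051 and Mir218-2 at chr11:35616816-35616925 (GRCm38, both on the strand of the host gene). Work in fish and in cultured cells has placed Robo1 and Robo2 among its targets, so ligand genes carry a regulator of their receptors. The mature arms are shown because both copies give the same 5p arm. They are RefSeq sequences on GRCm38.p6, with bases 2 to 8, the seed, in capitals.
miR-218-5p: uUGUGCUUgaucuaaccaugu
miR-218-1-3p: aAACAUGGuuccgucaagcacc
miR-218-2-3p: cAUGGUUCugucaagcaccgcg

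The 3 arms have 3 different seeds. The deposited table lists Mir218-1 at 51.7 FPKM in cKO replicate 1 and at 0 in the other 5 libraries, and Mir218-2 at 0 in all 6. The log2 fold change of Mir218-1, 1.91 (SE 1.46, adjusted p = 0.976), rests on that single library. Slit2 in the same library, 4.28 FPKM, lay within the range of the others. These are the values that the table assigns to the annotated hairpins, and mature miRNAs were not measured.

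Sites for the miR-218-5p seed, AAGCACA on the transcript strand, were looked for in the longest annotated 3′ untranslated region (3′ UTR) of each gene (GENCODE M21). Of 21007 3′ UTRs, 13.8% held at least 1 such match. Robo1, Robo3, Srgap2 and Srgap3 held 1 match each, Robo2 and Slit2 held 2 each, and Slit1, Slit3, Robo4 and Srgap1 held none. The 3′ UTRs differ in length, and among those within 25% of the length of the member's own, the share with a match was 3.06% for Robo3, 17.6% for Robo1, 31.4% for Slit2, 36.7% for Robo2, 37.2% for Srgap2 and 41.5% for Srgap3. The windows of 30 bases below show the 3 matches that are followed by an A, the longest form of pairing scored here, with the match in capitals, in Robo1 at chr16:73045348-73045354 (plus strand), Robo2 at chr16:73895359-73895365 (minus strand) and Srgap2 at chr1:131286522-131286528 (minus strand), all in the last exon.
Robo1 window: ttttggttttaaAAGCACAatcactaaact
Robo2 window: ttatttggtgatAAGCACAaatctctactc
Srgap2 window: gggaaaaatccaAAGCACAacttcaaaata

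In cKO replicate 1, where Mir218-1 was listed above 0, Robo1 had 53.0, Robo2 30.5 and Srgap2 12.1 FPKM. The Robo2 value was the lowest of the 6 libraries, and the Robo1 and Srgap2 values were not. Of the other genes with a match, Srgap3 was also at its lowest there (17.5 FPKM), and Robo3 (8.05 FPKM) and Slit2 (4.28 FPKM) were not. Slit3, which held no match, was at its lowest in the same library (0.244 FPKM). A match is a description of letters, and binding was not measured.

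Robo1, the receptor that sets the path of interneurons around the striatum in mice, had 49.0, 52.8 and 54.7 FPKM in the WT libraries and 53.0, 55.2 and 58.3 FPKM in the cKO libraries. It varied least among the 10 genes, with a coefficient of variation of 5.73%, and its highest library was 1.19 times its lowest. The log2 fold change was 0.09 (SE 0.07, 95% interval -0.08 to 0.25).

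Robo2, which shares ligands with Robo1 and acts with it in forebrain axon guidance, had 32.1, 41.2 and 38.1 FPKM in the WT libraries and 30.5, 34.7 and 33.1 FPKM in the cKO libraries. The values of WT replicate 1 lay among those of the cKO. The log2 fold change was -0.17 (SE 0.10, 95% interval -0.41 to 0.07), and -0.09 without WT replicate 2, the highest library.

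Robo1 and Robo2 together were 85.5% to 92.8% of the summed Robo FPKM. Their ratio within a library, which does not depend on the scaling of that library, was 1.53, 1.28 and 1.43 in WT and 1.74, 1.59 and 1.76 in cKO. The ratios did not overlap between genotypes (1.41 ± 0.125 against 1.70 ± 0.0913, SD, n = 3 each), with a two-sided exact permutation p = 0.1, the smallest the design allows. They were also apart without WT replicate 2. Among the 28 ratios that the 8 tested members form, 2 did not overlap, this one and Robo1 to Srgap3, whereas 10.6% of all pairs of tested loci did not overlap. The ratio was looked at after the values had been seen.

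Robo1 and Robo2 lie near each other on chromosome 16, Robo1 on the plus strand (locus chr16:72563433-73046100) and Robo2 on the minus strand (chr16:73891203-74412262). RefSeq gives 1 start for Robo1 and 3 for Robo2. The measured Robo1 locus begins upstream of its RefSeq start, beside a GENCODE start at 72563700 that has no RefSeq window. Of the 3 Robo2 start windows, only the most proximal lay inside the locus of the table, and no locus of any kind was listed between the end of the Robo2 locus and the most distal start. The windows of the starts that lay inside the measured loci are printed for these most abundant receptors, Robo1 at chr16:72662899-72663198 and Robo2 at chr16:74411776-74412075 (RefSeq, GRCm38.p6, 250 bases before to 50 after the start, on the strand of the gene, CG dinucleotides in capitals).
Robo1 start window: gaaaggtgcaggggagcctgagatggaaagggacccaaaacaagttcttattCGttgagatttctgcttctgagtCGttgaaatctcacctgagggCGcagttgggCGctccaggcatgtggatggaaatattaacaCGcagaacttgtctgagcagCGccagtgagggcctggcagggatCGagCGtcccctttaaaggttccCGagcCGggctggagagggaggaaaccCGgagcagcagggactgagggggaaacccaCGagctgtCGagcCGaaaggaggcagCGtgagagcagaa
Robo2 start window: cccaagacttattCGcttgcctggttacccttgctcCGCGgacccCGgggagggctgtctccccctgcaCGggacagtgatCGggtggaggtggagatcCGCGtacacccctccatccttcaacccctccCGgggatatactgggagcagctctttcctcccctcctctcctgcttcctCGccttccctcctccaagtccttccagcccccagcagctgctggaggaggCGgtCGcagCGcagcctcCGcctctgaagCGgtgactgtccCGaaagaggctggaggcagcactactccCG

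The Robo1 window held 15 CG dinucleotides and the Robo2 window 17, more than 65.4% and 68.6% of 32851 mouse promoter windows of the same length. The more distal Robo2 windows held 5 and 9. In all, 9 of the 10 genes had RefSeq windows, 11 in number. The homeodomain core TAATTA, which reads the same on both strands, was in 5.29% of all windows and, among these 11, in that of Robo3.

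GENCODE M21 starts the Robo1 gene at 72308306, far upstream of the measured Robo1 locus. In that stretch the table lists 40 loci without a gene name between positions 72304993 and 72491304, on the plus strand by their numbering, and the first of them covers the distal start. The run did not begin at that start, since unnamed loci were also listed upstream of the annotated gene, at 72296458-72299154 and 72299226-72300785. These had means of 0.637 and 0.532 FPKM and were highest in WT replicate 2. All 40 loci of the stretch had a mean below 1 FPKM (0.221 to 0.823), so none was tested. Their medians were 0.276, 0.770 and 0.164 FPKM in WT replicates 1 to 3 and 0.331, 0.555 and 0.423 FPKM in cKO replicates 1 to 3. WT replicate 2 was the highest library at 29 of the 40 loci, and its median exceeded that of every other library. Robo1 itself, at 52.8 FPKM in WT replicate 2, was not raised there.

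**Figure D4:**
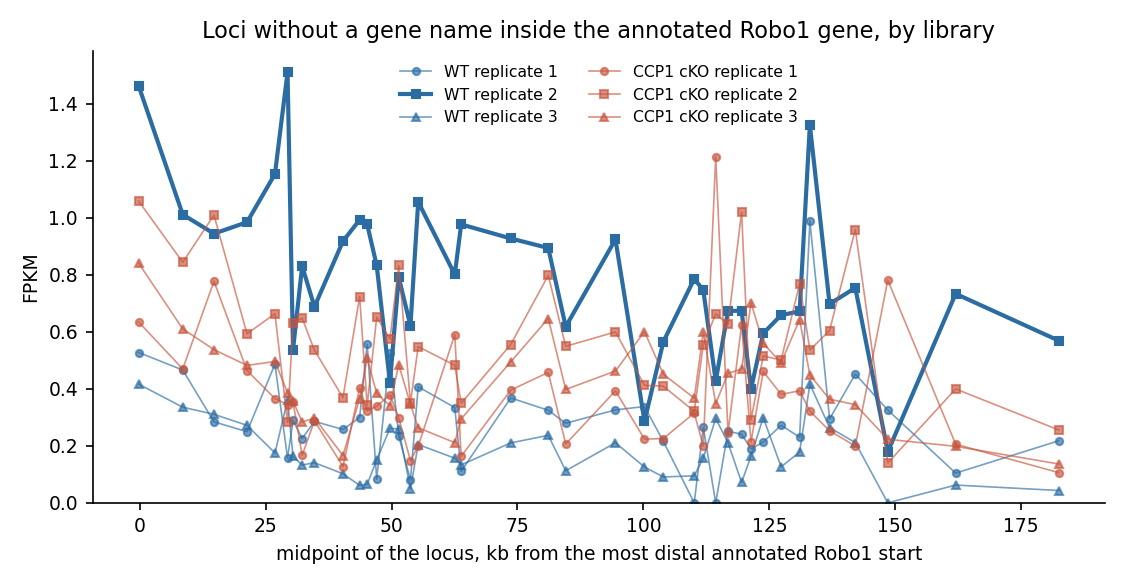
FPKM of the 40 loci without a gene name inside the annotated Robo1 gene, by the distance of their midpoints from the most distal annotated start in kb, a line per library (WT blue, CCP1 cKO red, circles, squares and triangles for replicates 1, 2 and 3). WT replicate 2 (thick line) is the highest library at 29 of the 40 loci.

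Robo3, whose mammalian form promotes midline crossing by commissural axons, had 9.65, 7.24 and 8.47 FPKM in the WT libraries and 8.05, 10.02 and 15.4 FPKM in the cKO libraries. cKO replicate 3 stood apart and the other 5 lay between 7.24 and 10.02 FPKM. The log2 fold change of 0.33 (SE 0.22, 95% interval -0.19 to 0.84) became 0.09 without that library. The study names the medial and caudal GEs as major sources of the morphogen SHH. In cKO replicate 3 Shh was also at its highest, 7.60 FPKM against 3.17 to 6.07 FPKM elsewhere. Zic1 and Zic2 of the same marker list did not peak there, with 50.1 and 6.26 FPKM against 65.0 and 15.3 FPKM in WT replicate 1. Shh was singled out after its values had been seen, and the part of dissected regions in the Robo3 value was not tested. Robo3 was 7.14% to 14.4% of the Robo sum.

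Robo4, the receptor of endothelial cells, was listed at 0.0343, 0.0841 and 0.0458 FPKM in the WT libraries and at 0.0493, 0.0833 and 0.0393 FPKM in the cKO libraries. The groups overlapped (two-sided exact permutation p = 0.8). Of 8 endothelial markers, 7 could be used, since the locus of Esam also carries another gene. Pecam1, Cdh5, Kdr, Tek, Cldn5, Emcn and Tie1 all had means below 1 FPKM, with a highest single value of 0.659 FPKM for Cldn5, and Cdh5 and Emcn were at 0 in at least 1 library. Their sum was 1.08 to 1.78 FPKM in WT and 0.495 to 0.753 FPKM in cKO libraries, and 5 of the 7 were higher in every WT than in every cKO library, while Robo4 was not. The same held at 4.28% of the 11373 loci that were above 0 with a mean below 1 FPKM, and none of these loci was tested. Robo4 and Robo3 lie end to end on chromosome 9 on opposite strands, and their values did not share a highest library.

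The srGAPs had their highest value in the same library. Srgap1 had 11.7, 15.1 and 9.23 FPKM in WT and 9.67, 9.96 and 10.5 FPKM in cKO. Srgap2, whose loss or inhibition alters neurite branching and migration of mouse cortical neurons, had 12.8, 17.5 and 13.3 FPKM in WT and 12.1, 13.4 and 10.7 FPKM in cKO. Srgap3, also called WRP, had 20.1, 31.7 and 18.8 FPKM in WT and 17.5, 18.2 and 19.6 FPKM in cKO. WT replicate 2 was 1.29, 1.30 and 1.58 times the next highest library at Srgap1, Srgap2 and Srgap3, and the remaining 5 libraries overlapped between genotypes at each gene.

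The log2 fold changes were -0.21 (SE 0.16) for Srgap1, -0.24 (SE 0.13) for Srgap2 and -0.30 (SE 0.18) for Srgap3. Without WT replicate 2 they were -0.04, -0.11 and -0.07. The summed srGAP FPKM was 64.3 in WT replicate 2 and 39.3 to 44.6 in the other libraries. The shares within the family changed less, with Srgap3 at 43.7% to 49.3%, Srgap2 at 26.1% to 32.3% and Srgap1 at 22.4% to 26.2% of the sum.

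WT replicate 2 was the highest library at 7 of the 10 genes, the exceptions being Slit2, Robo1 and Robo3. It was the highest library at 30.4% of all tested loci, and its share rose with the length of the locus in the file. That length is the listed span, which a short locus can share with a longer gene, as Mir218-1 does with Slit2. WT replicate 2 was highest at 15.6% of loci under 20 kb, 33.5% from 20 to 100 kb, 47.1% from 100 to 200 kb and 51.9% at 200 kb or more. Among the tested members, 6 have loci of 200 kb or more and 4 of these were highest in WT replicate 2, a share near that of their length class. Slit1, in the class from 100 to 200 kb, was also highest there, and Robo3, the only tested member under 20 kb, was lowest there.

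At loci of 200 kb or more the median log2 fold change was -0.06 with all libraries and -0.00 without WT replicate 2. WT replicate 2 was also highest at 43.6% of the 1524 tested loci without a gene name, and its summed FPKM of 6 cortical excitatory markers, 36.6, was the highest. Those markers summed to 30.4 and 8.86 FPKM in WT replicates 1 and 3 and to 27.1, 20.9 and 13.0 FPKM in cKO replicates 1 to 3. The srGAP sums of these libraries were 44.6, 41.3, 39.3, 41.6 and 40.9 FPKM in the same order. The lowest srGAP sum was in cKO replicate 1, and the lowest sum of the cortical markers in WT replicate 3. The part of locus length or of cortical cells in the srGAP values was not tested. The length classes were chosen after the values had been seen.

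**Figure D5:**
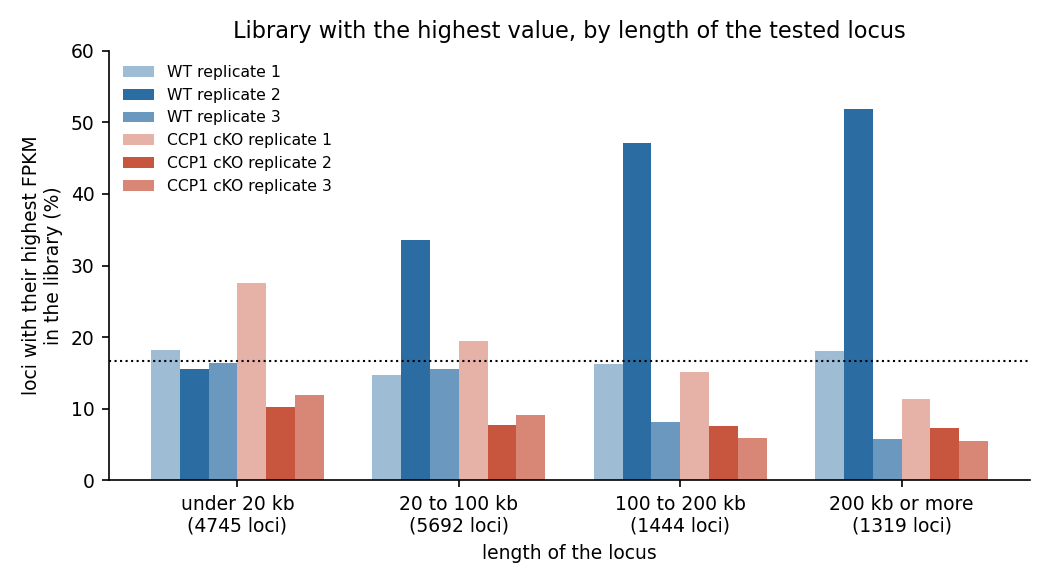
Percentage of tested loci at which each library had the highest FPKM of the 6, by the listed length of the locus. WT libraries are in blue, CCP1 cKO libraries in red, and the dotted line is at an equal share. WT replicate 2 rises from 15.6% of loci under 20 kb to 51.9% of loci of 200 kb or more, the class that holds Slit2, Robo1, Robo2 and the 3 Srgap genes.

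Isoforms were available only as the authors' means per genotype. The same isoform led in WT and in cKO at each of the 10 genes. The leading isoform took 51.3% of Robo1 in WT and 48.6% in cKO, 46.7% and 49.4% of Robo2, and 53.7% and 53.7% of Slit1. Srgap2 was the most concentrated of the genes with several isoforms in WT, at 83.1% and 81.2%. Robo3 was the most divided, with 12 isoforms of which the first took 19.3% and 24.1%. Robo2 had 16 isoforms, 4 of them at 1 FPKM or more in WT and 3 in cKO.

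Besides Mir218-1 and Mir218-2, 5 named loci lay inside a member locus or within 10 kb of it, and none passed the test. Mir691, whose annotated position lies in the Robo2 locus, had 1.31, 3.33 and 1.41 FPKM in WT and 1.19, 2.57 and 1.88 FPKM in cKO, again highest in WT replicate 2. Lcor beside Slit1 had 28.5 to 40.03 FPKM over the 6 libraries, with a log2 fold change of 0.01. Fam72a beside Srgap2 had 2.35 to 3.33 FPKM, with a log2 fold change of 0.08. Gm19424 beside Slit1 and Ikbke beside Srgap2 had means of 0.0674 and 0.151 FPKM.

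Among 55 genes that work with Slits and Robos, 51 were tested and none rose or fell by the adjusted p. Their median log2 fold change was -0.04. Unadjusted p-values below 0.05 were found for 2 of the 51 (4.62% of all tested loci), and the genotypes did not overlap at 6 of the 51 (9.8% of all tested loci). Of these 6, Cap2, Enah, Abl2 and Clasp1 were lower and Nck2 and Ext2 higher in the cKO.

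Coreceptors and Slit-binding partners were led by Gpc1, a heparan sulfate proteoglycan that binds Slit, at 102.6 FPKM, and of 15 tested members none passed, with a median of 0.01. The 5 tested genes of heparan sulfate synthesis were led by Hs2st1, a sulfotransferase, at 25.3 FPKM. Ext2, a subunit of the heparan sulfate polymerase, had 11.1, 11.4 and 11.0 FPKM in WT and 11.6, 12.5 and 11.98 FPKM in cKO, a log2 fold change of 0.10 (adjusted p = 0.976, limma). The median of the list was -0.04.

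The arm of Abl, Ena/VASP, Clasp and Cap proteins links Robo to actin and microtubules. Of its 11 tested genes, 9 had the lower mean in the cKO, compared with 56.6% of all tested loci. Cap2, a cyclase-associated protein that acts on actin filaments, had 4.26, 4.27 and 4.45 FPKM in WT and 2.81, 3.10 and 3.22 FPKM in cKO. The groups were apart by more than their spread, and the log2 fold change of -0.40 (SE 0.08) had an adjusted p = 0.393 (limma). Enah, an Ena/VASP protein that extends actin filaments, had 57.4, 65.6 and 60.3 FPKM in WT and 54.1, 52.1 and 53.3 FPKM in cKO, with a log2 fold change of -0.19 (SE 0.07, adjusted p = 0.961, limma). Pfn2, a profilin, was the most abundant gene of this arm at 257.6 FPKM. The median of the arm was -0.02, beside -0.02 for all tested loci.

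Nck2, an SH2/SH3 adaptor, had 26.3, 28.0 and 26.8 FPKM in WT and 30.7, 28.3 and 28.2 FPKM in cKO, a log2 fold change of 0.10 (adjusted p = 0.976, limma). The 6 tested genes of receptor processing and turnover had a median of -0.03 and were led by Nedd4, a ubiquitin ligase, at 334.3 FPKM. Nova2, a splicing regulator of neurons that led the RNA regulators at 13.1 FPKM, had 11.4, 21.0 and 11.6 FPKM in WT and 9.84, 11.0 and 13.6 FPKM in cKO, and as with the srGAPs WT replicate 2 was the highest library.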

How the data were processed

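Sorted interneuron RNA was analysed in 3 WT and 3 CCP1 cKO libraries, grouped by their labels. The authors aligned paired-end reads of a stranded total RNA kit to mm10 with Bowtie2 in the Tuxedo workflow and deposited FPKM per library and per genotype from Cuffdiff. Versions, annotation and strand setting were not given in the sources used here. In the deposited isoform table the authors' FPKM means per genotype have lost decimal points. They were restored so that isoforms summed to the gene within 0.001 FPKM, which had 1 solution for each of the 10 genes. Deposited fold changes, p-values and q-values belong to the authors' own comparison and were left out.

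The comparison used log2(FPKM + 1) in limma 3.58.1 with R 4.3.3 (lmFit, eBayes with trend). It took in 13200 loci that averaged 1 FPKM or more, with Benjamini-Hochberg adjustment over all of them and a threshold of 0.05. Fold changes on this scale understate the change of low genes. Single values were compared by exact permutation tests. The fit was tested on simulated data. Tables were made in Python 3.11.15 with pandas 2.3.3, NumPy 2.4.6 and SciPy 1.17.1, and figures with Matplotlib 3.10.9. File starts count from 0, so 1 was added. The order in which loci are numbered gave their strand, which matched GENCODE M21 at 99.7% of 19057 uniquely named loci. Only relative depth could be read from the values, and counting intervals were therefore not computed.

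The members and lists were chosen with earlier results of these data known. Named were all members, every partner gene that passed or otherwise the 2 with the smallest p in each direction, the most abundant gene of each partner and marker list except the pericyte list, all endothelial markers, named loci within 10 kb of a member, and Agtpbp1. The results of 1 partner list as a group are not reported here. Shh, Zic2, Foxa2, Abl2 and Clasp1 were named in addition, after their values were seen. Alternatives were other pseudocounts (0.1 and 0.5), other filters (none, or a mean of 5 FPKM), equal medians, quantile normalization, TPM, no trend, library weights, a replicate block, named loci only, symbols summed over loci, and each library left out.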

Additional observations from a re-analysis of the deposited data

How the results depend on the processing

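No Slit, Robo, Srgap or partner gene passed the threshold under any alternative run, and member directions were the same in 134 of 135 alternatives, with adjusted p from 0.615 to 1. The exception was Slit2, at -0.023 without WT replicate 3 (range -0.023 to 0.28 with each library left out). The difference of Slit3 turned from -0.0462 to 0.00876 FPKM without WT replicate 2 and 0.00899 FPKM without cKO replicate 1 (range -0.0902 to 0.00899). That of Robo4 turned from 0.00259 to -0.00760, -0.00189 and -0.0104 FPKM without WT replicate 1, WT replicate 3 and cKO replicate 2 (range -0.0104 to 0.0173). All 9 steps in the order of levels were kept, except that 8 were without WT replicate 2.

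Over all loci, the 12 calls became 28 after rescaling to TPM, 24 with library weights, 1 with only named loci, and 4 to 16 with each library left out, lowest without cKO replicate 3. The cause was not tested. The labels do not say whether the replicate numbers pair the libraries. Deviations of same-numbered libraries correlated at r = 0.32, 0.11 and 0.04 over loci. Of the 6 libraries, 2 correlated best with their own number. A pairing was thus neither shown nor excluded, and the main fit used none. With the replicate number as a block 16 loci were called, no member among them. Slit2 has no value at a mean of at least 5 FPKM. With 3 libraries per genotype, changes of the sizes that the intervals hold could have been missed. Slit3 and Robo4 are too low for the fit.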
